A study of Mus musculus with 6 samples.

Results

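Genes of replication origin licensing were followed in GS cells, cultured mouse spermatogonia, that had been stored frozen either on Earth or in orbit, aboard the International Space Station (ISS). They were the rows of the raw count table named Mcm2, Mcm3, Mcm4, Mcm5, Mcm6, Mcm7, Mcm10, Cdc45, Cdc6 and Cdt1. All 10 were among the 32285 rows of the table, and all 10 were among the 15104 genes that passed the filter on low counts.

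The study asked whether spaceflight induced genes in GS cells. GS cells had been derived from testes of DBA/2 mice aged 2 to 3 days with the genotype DBA/Tg14(act-EGFP-OsbY01), an EGFP transgene driven by an actin promoter that had been bred from C57BL6 into DBA/2, and both groups carried it. Both groups had also been frozen for 6 months, the Space group aboard the ISS and the Ground group on Earth, so the comparison is of where the cells were stored and not of freezing itself. RNA was taken on the day after thawing, without passage, from 3 libraries per group. The series describes these as biological replicates, and the study speaks of 3 lines, but the labels do not say which libraries share a line, mouse or thaw. Groups here follow the library titles. The treatment entries are swapped relative to the titles in all 6 libraries, and if the entries were right every direction given here would turn. Values of a group are given in the order of library numbers 1, 2 and 3.

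Licensing is the step that prepares a chromosome for replication. Before S phase the origin recognition complex, with Cdc6 and Cdt1, loads the ring-shaped Mcm2 to Mcm7 helicase onto DNA in an inactive form. On entry into S phase, kinases and factors such as Mcm10 turn the loaded ring into a working helicase together with Cdc45 and the GINS complex, while geminin holds Cdt1 in check so that no origin is licensed again. Dividing cells express these genes and resting cells largely do not, and many of their promoters are known targets of the E2F transcription factors. Spermatogonia that self-renew in culture divide steadily.

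All 10 licensing genes were expressed in all 6 libraries, with at least 1326 counts each, and 0 of them were called as changed between Space and Ground. By edgeR's quasi-likelihood test, 0 of 10 had an adjusted p under 0.05, against 0 of all 15104 genes (0%). At an unadjusted p under 0.05 the count was 0 of 10, against 92 of all genes (0.609%). Expression is given as CPM, the usual count of a gene relative to the total of its library, after TMM scaling, which levels out differences in library composition. The CPM values of Space and Ground did not overlap in 0 of 10, against 542 of all genes (3.59%). The log2 fold changes, Space over Ground, ran from -0.079 for Mcm10 to 0.038 for Mcm4, with 3 genes higher and 7 lower in Space. Their median was -0.0037, and that of all genes tested was -0.0020.

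Deposited counts summed to 19015985 to 24110916 per library, and 19528 to 20316 genes had at least 1 count. Mitochondrial genes took 2.51% to 11.5% of the counts, with the highest shares in Ground-2 and Space-2. Over all genes tested, each library was most like one of the other group, Ground-1 and Space-3, Ground-2 and Space-2, and Ground-3 and Space-1, and Pearson's r on the log2 CPM scale was 0.9936 to 0.9957 within these pairs. The counts of every pair of libraries differed by more than sampling noise, but least within these pairs. The measure was the median chi-square per gene, with low counts left out, relative to that of sampling noise alone. It was 1.55 for Ground-1 and Space-3, 2.83 for Ground-2 and Space-2, and 2.71 for Ground-3 and Space-1. For all other pairs it was 5.67 to 12.3. All 17 germ cell markers listed passed the filter on low counts, at levels that differed widely. Dazl, a germ cell RNA-binding protein, measured 782 to 964 CPM and Ddx4, an RNA helicase of germ cells, 376 to 422 CPM, while Nanos2 measured 4.78 to 12.1 CPM and Eomes 1.05 to 2.64 CPM. Bcl6b, a factor of self-renewal, varied most, from 57.6 to 371 CPM. Its counts were 8836 and 9285 in Ground-1 and Space-3, 4175 and 4084 in Ground-2 and Space-2, and 1347 and 1398 in Ground-3 and Space-1. Etv5 was likewise highest in Ground-1 and Space-3 (6286 and 6547 counts) and lowest in Ground-3 and Space-1 (2122 and 2406). Nanos2 was instead highest in Ground-3 and Space-1 (277 and 276 counts).

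The promoters of the licensing genes were searched for short motifs, because the E2F factors are known for driving these genes at the start of S phase. RefSeq promoter sequences, from 250 bases before to 50 bases after the annotated start on GRCm38.p6, were found for 9 of the 10 genes, all but Mcm4. The E2F letters searched on both strands were TTTCCCGC, TTTGGCGC, TTTCGCGC and TTTGCCGC. At least 1 of them was present in Mcm3, Mcm5, Mcm6, Mcm7, Cdc6 and Cdt1, 6 of 9 genes, against 744 of 32851 promoters (2.26%). Mcm7 had a pair of annotated promoters of which the one further downstream held no match, so that counted by promoter the share was 6 of 10. The stretches below are shown because they carry these matches, which stand in capitals on the strand of the gene. Positions are counted from the annotated start, with negative numbers before it.
Mcm3, bases 17 to 46: gtgGCGGGAAAacttgggaagtTTTGGCGC
Mcm5, bases -167 to -128: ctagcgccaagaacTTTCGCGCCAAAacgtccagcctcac
Mcm6, bases -124 to -85: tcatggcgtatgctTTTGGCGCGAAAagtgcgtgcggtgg
Mcm6, bases -61 to -26: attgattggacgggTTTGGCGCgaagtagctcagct
Mcm7, bases -179 to -144: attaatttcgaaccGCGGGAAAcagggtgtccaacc
Mcm7, bases 14 to 43: acgTTTCGCGCcaatttcggttggccggct
Cdc6, bases -152 to -117: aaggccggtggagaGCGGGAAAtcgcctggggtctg
Cdt1, bases 30 to 50: cttTTTGGCGCcatggcgcaa

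In genome coordinates of GRCm38.p6 the Mcm3 stretch is chr1:20820267-20820296 on the minus strand and the Mcm5 stretch is chr8:75109342-75109381 on the plus strand. The Mcm6 stretches are chr1:128359790-128359829 and chr1:128359731-128359766, both on the minus strand. Those of Mcm7 are chr5:138172027-138172062 and chr5:138171841-138171870 on the minus strand. The Cdc6 stretch is chr11:98907999-98908034 and that of Cdt1 is chr8:122568044-122568064, both on the plus strand. In Mcm5 and in the first Mcm6 stretch, matches on the 2 strands overlap in one run of capitals. Mcm3 held a pair of separate matches within its stretch. The windows of Mcm2, Mcm10 and Cdc45 did not hold these letters. CCAAT, the box bound by NF-Y, was found on either strand in 7 of 9 genes, all but Cdc6 and Cdt1, against 12289 of 32851 (37.4%). GGGCGG, the GC box bound by Sp1, was found in 7 of 9, all but Mcm5 and Cdc6, against 11714 of 32851 (35.7%). Both promoters of Mcm7 held these, so that counted by promoter each share was 8 of 10. A match describes the letters in the window and does not show that a factor was bound there.

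Cdc6 and Cdt1 are the loaders that bring the helicase to an origin. Cdc6, an ATPase that joins the origin recognition complex, lies on chromosome 11 (98907801-98923940, plus strand, GRCm38). It measured 63.0, 72.2 and 66.4 CPM in the Ground libraries and 69.1, 70.7 and 66.0 CPM in the Space libraries. The Space values all fell inside the range of the Ground values. The means were 67.2 ± 4.66 CPM in Ground and 68.6 ± 2.40 CPM in Space (SD, n = 3 each), a log2 fold change of 0.029 (SE 0.070). Cdt1, the partner of Cdc6 that geminin inhibits, lies on chromosome 8 (122568015-122573554, plus strand). It measured 164, 185 and 168 CPM in the Ground libraries and 170, 171 and 166 CPM in the Space libraries. All 3 Space values again lay within the Ground range. The log2 fold change was -0.030 (SE 0.061), from 173 ± 10.9 CPM in Ground to 169 ± 2.52 CPM in Space. Cdc6 and Cdt1 kept nearly the same proportion in every library, with a CPM ratio of 0.397 on average and a coefficient of variation of 2.77% over 6 libraries. Counting error alone would give 2.57% for Cdc6 and 1.62% for Cdt1. The ratio was 0.383, 0.390 and 0.394 in Ground and 0.407, 0.413 and 0.397 in Space. All Space values thus lay above all Ground values, by a small margin, and this difference was not tested.

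The ring of the helicase is built from Mcm2 to Mcm7, each an AAA+ ATPase present once per ring. Mcm2, on chromosome 6 (88883474-88898780, minus strand), measured 527, 580.1 and 548 CPM in the Ground libraries and 547, 569 and 524 CPM in the Space libraries. Ground-1 and Space-3 were the lowest and Ground-2 and Space-2 the highest, so the groups overlapped. The log2 fold change was -0.013 (SE 0.061). Mcm3, on chromosome 1 (20802968-20820312, minus strand), followed the same order, with 400.0, 455 and 425 CPM in Ground and 426, 455 and 398 CPM in Space. Its group means were 427 ± 27.6 and 426 ± 28.8 CPM (SD, n = 3 each), a log2 fold change of -0.0022 (SE 0.073).

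Mcm4, on chromosome 16 (15623897-15637400, minus strand), measured 344, 353 and 332 CPM in the Ground libraries and 344, 360.0 and 353 CPM in the Space libraries. It had the narrowest spread of the licensing genes, its highest library being 1.08 times its lowest. The log2 fold change of 0.038 (SE 0.052) was the highest of the 10. Mcm5, on chromosome 8 (75109569-75128439, plus strand), measured 421, 447 and 405 CPM in Ground and 415, 444 and 425 CPM in Space. Ground-2 and Space-2 were again highest, while Ground-3 and Space-1 were lowest. The log2 fold change of Mcm5 was 0.012 (SE 0.059).

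Mcm6 and Mcm7 varied more between libraries than the other ring genes. Mcm6, on chromosome 1 (128331590-128359664, minus strand), measured 372, 456 and 457 CPM in the Ground libraries and 461, 442 and 378 CPM in the Space libraries. Ground-1 and Space-3 stood below the other libraries, 1 in each group. The group means were 428 ± 48.4 and 427 ± 43.3 CPM (SD, n = 3 each), with a log2 fold change of -0.0044 (SE 0.10). Mcm7, on chromosome 5 (138164583-138172422, minus strand), measured 457, 529 and 547 CPM in Ground and 542, 536 and 451 CPM in Space. The same libraries, Ground-1 and Space-3, were lowest. Its log2 fold change was -0.0029 (SE 0.096). Exons of Mcm7 share 321 bases with Ap4m1 and 64 with Cops6 on the opposite strand, and the strand setting of the counting was not stated, so its count is uncertain to that extent.

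Mcm10 and Cdc45 act when the loaded ring is switched on. Mcm10, a scaffold that helps the helicase to open DNA, lies on chromosome 2 (4989714-5012791, minus strand). It measured 122, 127 and 115 CPM in the Ground libraries and 112, 118 and 115 CPM in the Space libraries. Ground-1 and Ground-2 were the highest of the 6 libraries, but Space-2 lay above Ground-3, so the groups overlapped. The means were 122 ± 6.13 and 115 ± 3.09 CPM (SD, n = 3 each). Its log2 fold change of -0.079 (SE 0.059) was the lowest of the 10, with the smallest p among them (edgeR unadjusted p = 0.215, adjusted p = 0.9999). Cdc45, a subunit of the active helicase, lies on chromosome 16 (18780447-18811987, minus strand) and shares 209 exonic bases with Ufd1 on the opposite strand. It measured 149, 174 and 136 CPM in the Ground libraries and 132, 170 and 144 CPM in the Space libraries. Ground-2 and Space-2 stood above the others. Cdc45 had the widest spread of the 10 genes, 1.31 times between its highest and lowest library, and a log2 fold change of -0.042 (SE 0.12).

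**Figure D1:**
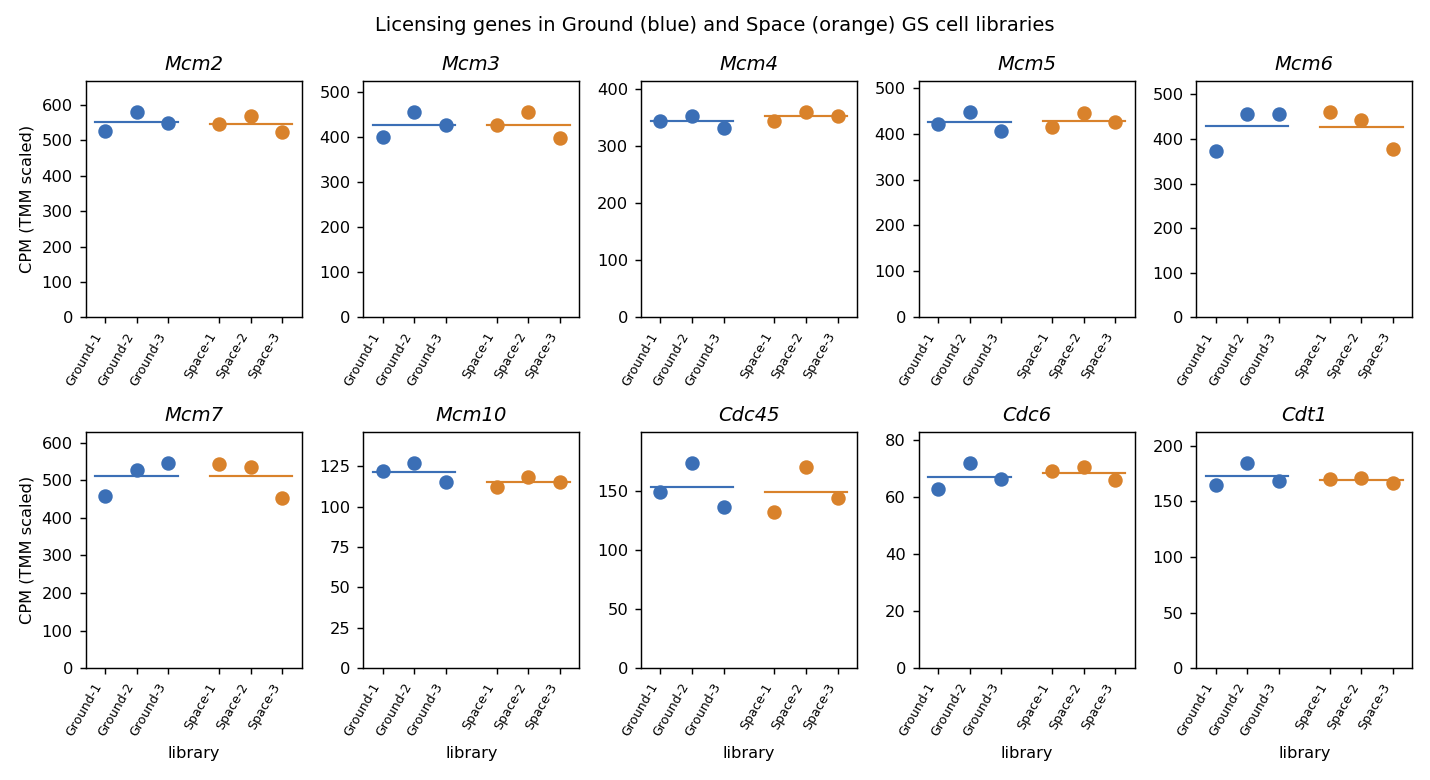
TMM-scaled CPM (vertical axis from 0) of the 10 licensing genes, one panel each. Each point is 1 library, blue for Ground and orange for Space, and each line is the mean of 3 libraries. The points of both groups overlap in every panel, and Ground-1 and Space-3 are the low points of Mcm6 and Mcm7.

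The 95% intervals of the fold change, Space over Ground, were narrowest for Mcm4, 0.944 to 1.12, and widest for Cdc45, 0.806 to 1.17. For Mcm6 the interval was 0.843 to 1.18 and for Mcm10 0.861 to 1.04. These intervals are unadjusted and hold the fold changes compatible with the fit on 3 libraries per group. That fit did not model the likeness of libraries across groups, so the intervals may be too wide. The adjusted p was 0.9999 for all 10 genes (edgeR, Benjamini-Hochberg over 15104 genes). The sign of the log2 fold change turned in at least 1 fit without 1 library in 8 of the 10 genes. It turned under no alternative for Mcm4 (0.020 to 0.073) and Mcm10 (-0.11 to -0.044). In bulk RNA, a smaller share of cells in S phase and less RNA per cell cannot be told apart.

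**Figure D2:**
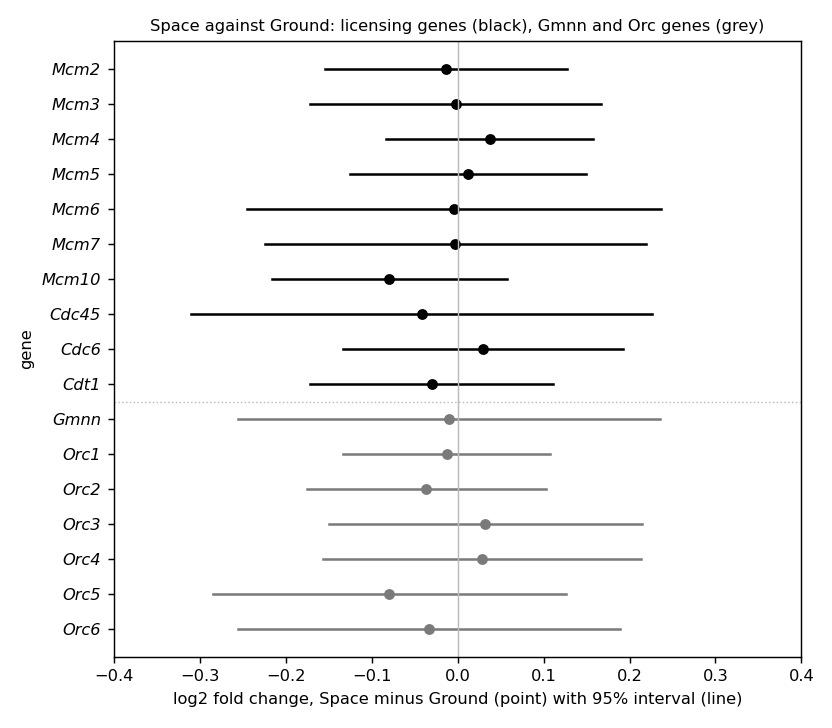
Log2 fold change of each licensing gene, Space over Ground (horizontal axis), with its 95% interval from the edgeR fit on 3 libraries per group. All 10 intervals include 0, and the interval of Mcm4 is the narrowest and that of Cdc45 the widest.

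The licensing genes differed in how much they varied between libraries. Over the 6 libraries the coefficient of variation ran from 2.81% for Mcm4 to 11.4% for Cdc45, where counting error alone would give from 0.905% for Mcm2 to 2.57% for Cdc6. The median SD of log2 CPM was 0.070 for the licensing genes and 0.151 for all genes tested. Mcm4 lay at percentile 4.16 of that SD, Mcm7 at 42.8, Mcm6 at 47.6 and Cdc45 at 52.9. The part of their expression level in this narrow spread was not tested.

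The variation that remained followed libraries rather than groups. Ground-2 and Space-2 were the 2 highest libraries in 7 of 10 licensing genes (Mcm2, Mcm3, Mcm4, Mcm5, Cdc45, Cdc6 and Cdt1), against 10.1% of all genes tested. Ground-1 and Space-3 were the 2 lowest in 6 of 10 (Mcm2, Mcm3, Mcm6, Mcm7, Cdc6 and Cdt1), against 19.7% of all genes. Ground-3 and Space-1 were the 2 lowest in Mcm4, Mcm5 and Cdc45, against 23.5% of all genes, and the 2 highest in Mcm6 and Mcm7. These orders were noticed in the data and are given as a description, with no test. The same libraries were highest and lowest in the sums of 2 related lists. Genes of DNA synthesis deviated from their mean by 6.8% and 5.4% in Ground-2 and Space-2 and by -7.1% and -7.0% in Ground-1 and Space-3, and genes of helicase activation and the fork by 4.6% and 5.5% and by -5.1% and -4.2%. In the sums of the other related lists, Ground-1 and Space-3 were also the 2 lowest. Ground-2 and Space-2 were not the 2 highest there. Licensing regulators were highest in Space-1 (3.4%), as were E2F factors and pocket proteins (2.9%). The origin recognition complex (2.1%) and relatives of the ring (12.9%) were highest in Ground-3. Mitosis genes were highest in Ground-2 (8.6%) and Ground-3 (6.9%). Ground-2 and Space-2 also had the lowest total counts, 19930234 and 19015985, and the highest mitochondrial shares, 11.5% and 7.12%, and the part of these in the order was not tested. Cdc45 showed this order most widely, with deviations from its mean of 15.2% and 12.4% in Ground-2 and Space-2 and of -9.6% and -12.3% in Ground-3 and Space-1. Mcm6 deviated by -12.9% and -11.5% in Ground-1 and Space-3, and Mcm7 by -10.4% and -11.6%.

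**Figure D3:**
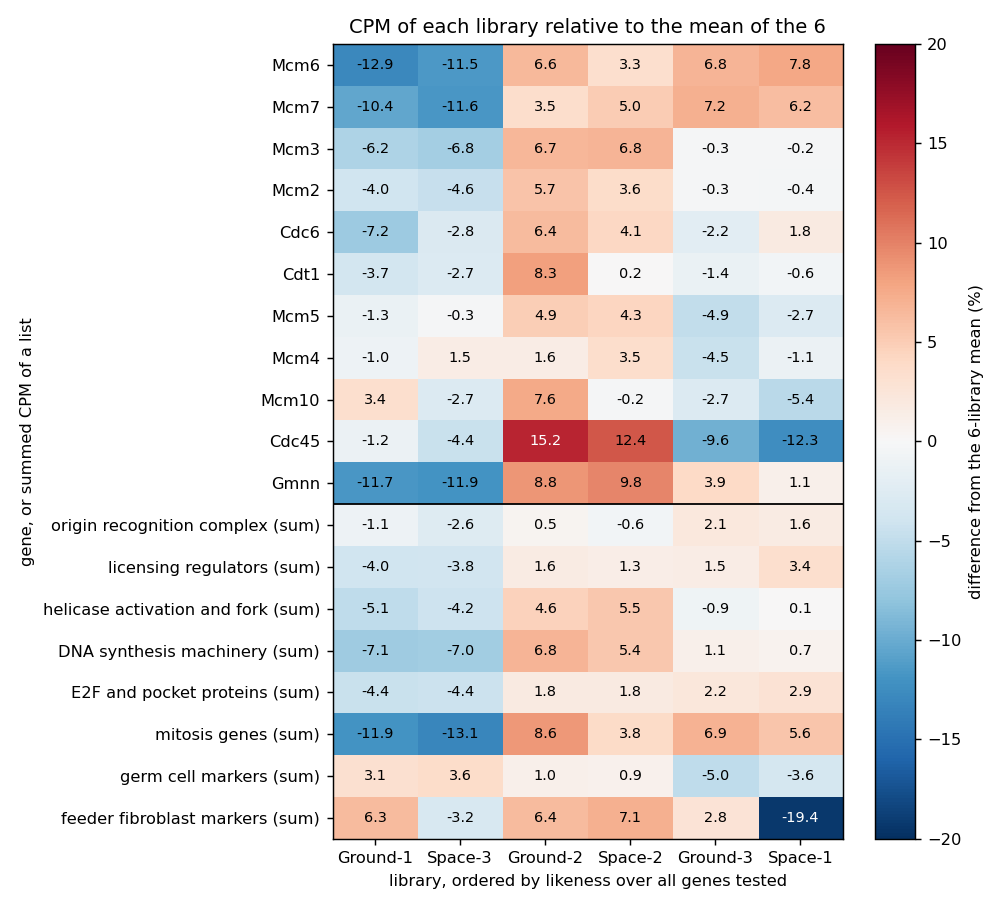
Deviation from the mean of the 6 libraries, in percent, of each licensing gene, Gmnn and the summed CPM of lists (rows). The lists of relatives of the ring and of Sertoli, Leydig, macrophage and endothelial cell markers are not shown. Libraries are columns, ordered by likeness over all genes tested. Red is above the mean and blue below it. Mcm6 and Mcm7 lie between -12.9% and -10.4% in Ground-1 and Space-3, and Cdc45 lies at 15.2% and 12.4% in Ground-2 and Space-2.

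Within the ring, some pairs of genes kept a closer proportion than others. Of the 15 pairs of Mcm2 to Mcm7, the CPM ratio varied least over the 6 libraries for Mcm4 to Mcm5 (coefficient of variation 1.83%), Mcm2 to Mcm3 (2.03%) and Mcm6 to Mcm7 (2.08%). Mcm2 to Mcm5 (3.35%) and Mcm2 to Mcm4 (4.04%) came next, so Mcm2 to Mcm5 did not fall into separate pairs. The ratio of Mcm6 to Mcm7 stayed between 0.814 and 0.862. The ratio varied most for Mcm4 to Mcm6 (10.9%), at 0.925, 0.775 and 0.727 in Ground and 0.746, 0.815 and 0.934 in Space. Of the promoters searched, those of both Mcm6 and Mcm7 held E2F letters, while of Mcm2 and Mcm3 only that of Mcm3 did. That of Mcm5 held them, and for Mcm4 no promoter sequence was found. A link of these letters to the ratios was not tested. These ratios share the same 6 libraries and are descriptions, with no test.

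Levels between genes were compared as CPM per kilobase of gene length, on the union of a gene's exons or on its longest protein-coding transcript. On union exons Mcm7 was highest, at 115 ± 9.93 CPM per kilobase (SD, n = 6), followed by Mcm3 (114 ± 6.73), Mcm5 (107 ± 4.14), Mcm4 (96.9 ± 2.72), Mcm6 (91.6 ± 8.80) and Mcm2 (78.9 ± 3.20). The ranges of neighbours overlapped for Mcm7 and Mcm3, Mcm3 and Mcm5, Mcm4 and Mcm6, and Mcm6 and Mcm2, but not for Mcm5 and Mcm4. The 6 ring genes lay between percentiles 97.1 and 98.4 of all genes tested on this scale. The loaders and activators were lower, with Cdt1 at 54.4 ± 2.33, Cdc45 at 43.1 ± 4.91, Mcm10 at 15.4 ± 0.731 and Cdc6 at 13.0 ± 0.650 CPM per kilobase, and no neighbours overlapped among them. The length used decided the place of Mcm2 and moved other genes. The exon union of Mcm2, of 6956 bases, includes retained introns. On its coding transcript of 3371 bases it stood second, at 163 ± 6.61 CPM per kilobase, after Mcm7 at 172 ± 14.8. On coding transcripts Mcm4 fell from place 4 to place 6, below Mcm6 at place 5. On that length the ranges of neighbours overlapped for Mcm7 and Mcm2, Mcm3 and Mcm5, Mcm6 and Mcm4, and Cdt1 and Cdc45. The order within these pairs was therefore not clear.

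As shares of the summed CPM per kilobase of the ring, Mcm2 to Mcm7 were also set side by side, since the protein ring holds them in equal number. On union exons Mcm2 took 12.8% to 13.4% in the 6 libraries, Mcm3 18.5% to 19.2%, Mcm4 15.2% to 17.3%, Mcm5 16.7% to 18.7%, Mcm6 14.1% to 16.1% and Mcm7 17.9% to 20.3%. The difference of Space and Ground was at most 0.36 percentage points, for Mcm4 (16.9%, 15.6% and 15.2% in Ground, and 15.6%, 15.9% and 17.3% in Space). By exact 2-sided permutation tests the p-values were 0.5 to 1, and 1 after adjustment over 6 shares, where 3 against 3 libraries cannot go below 0.1. The length used again decided the place of Mcm2, since on coding transcripts it took up to 20.9%, Mcm4 11.5% to 13.1% and Mcm6 11.4% to 13.1%. The summed level of the ring on union exons was 567, 632 and 608 CPM per kilobase in the Ground libraries and 613, 631 and 569 in the Space libraries. The lowest libraries were again Ground-1 and Space-3.

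**Figure D4:**
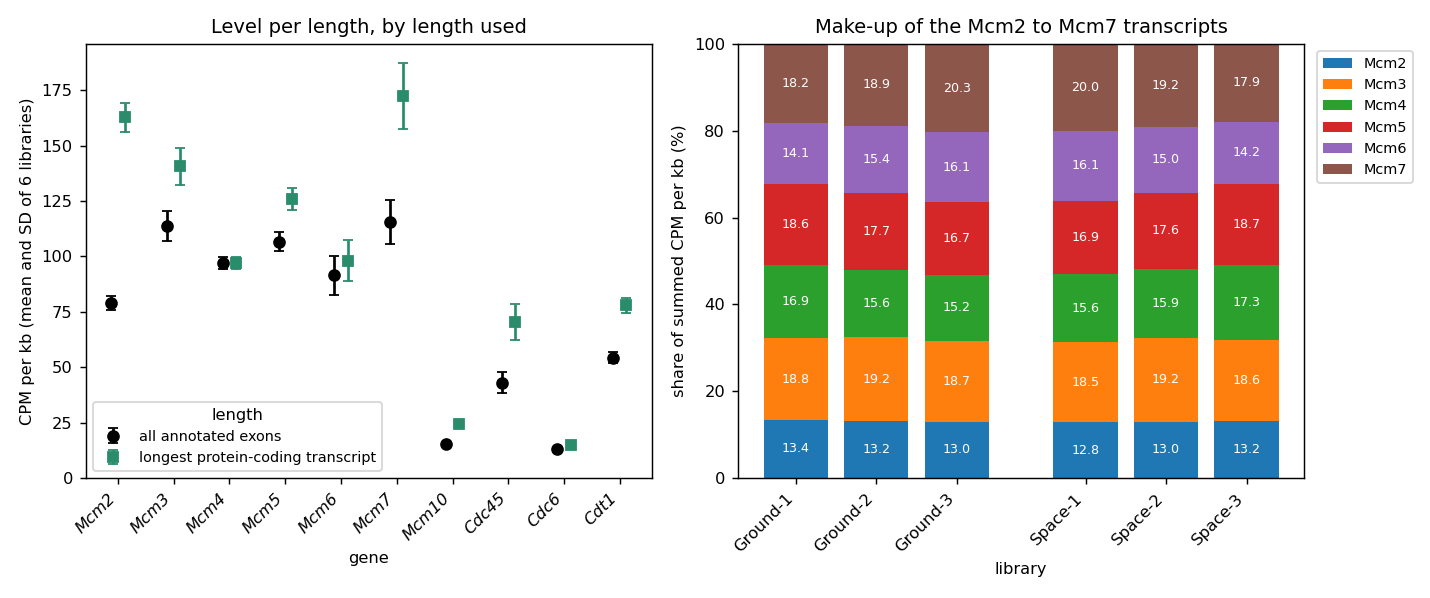
Level of each licensing gene in CPM per kilobase, on union exons and on the longest protein-coding transcript, with the mean and SD of 6 libraries (left), and the percent share of each of Mcm2 to Mcm7 in their summed level on union exons, by library (right). Mcm2 moves from 78.9 to 163 CPM per kilobase between the lengths, and in Ground-1 and Space-3 the share of Mcm4 is highest (16.9% and 17.3%) and that of Mcm6 lowest (14.1% and 14.2%).

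The inhibitor of licensing, geminin (Gmnn, chromosome 13, 24751845-24761923, minus strand), measured 72.6, 89.5 and 85.5 CPM in the Ground libraries and 83.1, 90.3 and 72.4 CPM in the Space libraries. Like Mcm6, it was lowest in Ground-1 and Space-3. The log2 fold change was -0.010 (SE 0.11). The log2 ratio of Cdt1 to Gmnn per kilobase averaged -0.032 ± 0.10 over the Ground libraries and -0.050 ± 0.14 over the Space libraries (SD, n = 3 each), and the difference of -0.018 had an exact 2-sided permutation p of 0.9.

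The origin recognition complex is the platform on which licensing takes place. Its 6 genes summed to 389 to 408 CPM over the libraries, and the 10 licensing genes to 3021 to 3378 CPM. These sums hold unlike numbers of genes and are not scaled to gene length, so they do not compare levels. Of these genes 0 of 6 passed the adjusted threshold, with 2 higher and 4 lower in Space. The log2 fold changes were -0.013 (SE 0.052) for Orc1, -0.036 (0.060) for Orc2, 0.032 (0.079) for Orc3, 0.028 (0.080) for Orc4, -0.080 (0.089) for Orc5 and -0.033 (0.096) for Orc6. Orc1, the ATPase that is known to be made and degraded with the cell cycle, measured 102, 98.0 and 98.8 CPM in Ground and 101, 98.8 and 97.2 CPM in Space.

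Regulators of licensing gave 0 of 12 genes past the adjusted threshold, with a median log2 fold change of 0.0057. Cdc7, the kinase that activates the loaded ring, had a log2 fold change of 0.052 (SE 0.086), and its activating subunit Dbf4 of -0.037 (SE 0.057). Ddb1, an adaptor of the ubiquitin ligase that removes Cdt1, measured 651 ± 11.4 CPM in Ground and 662 ± 28.4 CPM in Space (SD, n = 3 each). Relatives of the ring outside licensing gave 0 of 3. Mcm8, which acts in recombination, measured 64.5, 70.1 and 85.1 CPM in Ground and 82.9, 68.8 and 66.7 CPM in Space. Mcmdc2, a meiotic recombination factor, was low, at 0.9 to 2.0 CPM, with a log2 fold change of -0.44 (SE 0.32).

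Downstream of licensing, genes of helicase activation and the fork gave 0 of 13 past the adjusted threshold, with 7 higher and 6 lower in Space. Ticrr, which helps Cdc45 onto the ring, was the 1 of 13 genes of this list whose groups did not overlap, against 3.59% of all genes, with 52.5, 50.2 and 52.0 CPM in Ground and 56.4, 56.3 and 52.8 CPM in Space. Its log2 fold change was 0.098 (SE 0.063) with an adjusted p of 0.9999 by edgeR. Gins1, a subunit of GINS, had a log2 fold change of -0.066 (SE 0.093) and Topbp1, a scaffold of helicase activation, of 0.022 (SE 0.061). Genes of DNA synthesis gave 0 of 25, with 7 higher and 18 lower. Among them 1 of 25 did not overlap between groups, against 3.59% of all genes, and this was Pole2, a subunit of polymerase epsilon (22.2, 22.1 and 23.2 CPM in Ground, and 22.0, 21.2 and 20.2 CPM in Space). The primase subunit Prim2 had a log2 fold change of 0.068 (SE 0.094) and Lig1, the ligase that joins Okazaki fragments, of -0.025 (SE 0.11).

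E2F factors and pocket proteins gave 0 of 18 past the adjusted threshold, with 7 higher and 11 lower. Rbl2, a pocket protein of resting cells, was the 1 of 18 genes of that list with groups apart, against 3.59% of all genes, at 3.8, 3.4 and 4.0 CPM in Ground and 4.7, 4.2 and 5.0 CPM in Space, which is 0.31 on the log2 scale (SE 0.18) with an adjusted p of 0.9999 by edgeR. E2f8, a repressor of E2F targets, had a log2 fold change of -0.063 (SE 0.12), and Tfdp1, the partner of the E2F factors, of -0.011 (SE 0.068). Mitosis genes gave 0 of 16, with 3 higher and 13 lower. Top2a, which untangles chromosomes before division, measured 532, 770.2 and 766 CPM in the Ground libraries and 767, 729 and 542 CPM in the Space libraries. It deviated from its mean by -22.3% and -20.8% in Ground-1 and Space-3, the libraries in which Mcm6 and Mcm7 were lowest. Mki67, a proliferation marker, had a log2 fold change of -0.074 (SE 0.088) and Bub1, of the spindle checkpoint, of 0.0063 (SE 0.054). As a sum, mitosis genes deviated by -11.9% and -13.1% in Ground-1 and Space-3, and the licensing genes by -5.5% in both.

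Markers of other cells were measured beside these results. The 17 germ cell markers tested summed to 3837 to 4167 CPM in Ground and 3896 to 4187 CPM in Space. The 24 fibroblast markers tested, of the kind of cell that feeder layers consist of, summed to 1281 to 1326 CPM in Ground and 1005 to 1335 CPM in Space. Of these, 0 of 24 passed the adjusted threshold, but 23 were lower in Space, against 7743 of all 15104 genes, with a median log2 fold change of -0.28. At an unadjusted p under 0.05 there were 4 of 24, against 0.609% of all genes, and 2 of 24 had groups apart, against 3.59%. In Space-1 that sum deviated from its mean by -19.4%, and the sum of the licensing genes by 0.67%. Marker sums were 24.5 to 27.8 CPM for Sertoli cells, 4.0 to 5.0 for Leydig cells, 14.1 to 22.5 for macrophages and 10.5 to 20.7 for endothelial cells. Endothelial markers deviated from their mean by 40.5% and 29.2% and macrophage markers by 22.1% and 18.2% in Ground-1 and Space-3, the libraries in which Mcm6 and Mcm7 were lowest. These sums rest on few genes. The macrophage sum was nearly all Cd68 (mean 18.0 CPM), while Ptprc averaged 0.40 CPM and Csf1r had at most 2 counts in a library. Among endothelial markers, Kdr ran from 1.07 to 9.14 CPM and Cdh5 from 0.62 to 3.87 CPM, while Pecam1 stayed at 7.46 to 8.85 CPM. The Leydig cell enzyme gene Hsd3b1 was at 0 in all 6 libraries, and the macrophage gene Adgre1 had 1 count in all. Germ cell markers as a sum deviated by 3.1% and 3.6% in Ground-1 and Space-3, where Bcl6b and Etv5 were highest. Nanos2 was highest in Ground-3 and Space-1. The part of these cells and markers in the licensing values was not tested.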

How the data were processed

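Raw counts of 6 libraries were deposited by the authors as 1 table, with 0 columns of other samples. The methods of the study give cutadapt, HISAT2, mm10 and GENCODE M21. The submitters' processing notes name bcl2fastq 2.20, HISAT2 2.2.1, cutadapt 4.1 and HTSeq 2.0.2 without a role, and the kit and sequencer differ between labels and methods.

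Counts were analysed with edgeR 4.0.16 in R 4.3.3. filterByExpr kept 15104 genes, TMM factors were 0.943 to 1.04, and the 2-sided quasi-likelihood test had no replicate block. Adjusted p-values are Benjamini-Hochberg over all genes tested, with a threshold of 0.05. CPM are TMM-scaled, log2 CPM used a prior count of 2, and the SE is the log2 fold change divided by the square root of F. Intervals are 95%. The edgeR p-values set the difference of Space and Ground against the spread between libraries within the groups. Where labels do not name separate cultures, that spread may be technical. Of 32285 identifiers, 32235 were in GENCODE M21 (GRCm38), the source of positions and lengths. The fit was also run on simulated counts, which varied less between libraries than these and held no likeness across groups. That run does not show how the test performs on these data.

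The licensing genes and lists were chosen with earlier results of these data known. Named were all 10 licensing genes, Gmnn, the origin recognition complex, and of each other context list the gene with the smallest p in each direction and the one with the highest CPM. Ddx4, Dazl, Nanos2, Eomes, Bcl6b, Etv5, Hsd3b1, Adgre1, Cd68, Ptprc, Csf1r, Pecam1, Cdh5 and Kdr were named after their values were seen. Alternatives were RLE factors, total counts, no filter, at least 10 counts in 3 libraries, DESeq2 1.42.0, limma-voom (limma 3.58.1), a replicate block, leaving out each library, and other gene lengths.

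Replicate numbers were checked for pairing. Deviations of same-numbered libraries correlated at -0.54, 0.33 and -0.61, so the numbers were not taken as pairs.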

Additional observations from a re-analysis of the deposited data

How the results depend on the processing

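With every setting, 0 genes passed the adjusted threshold, among them 0 licensing genes and 0 of each context list. Genes with an unadjusted p under 0.05 numbered 92 in edgeR, 45 in DESeq2, 88 in limma-voom, 91 with RLE factors, 75 with total counts, 192 without a filter, 91 with at least 10 counts in 3 libraries and 64 to 161 without 1 library. Of 578 alternative log2 fold changes of the 34 named genes, 504 kept their sign and 74 did not, and no licensing gene exceeded 0.15 in size. The smallest adjusted p of a named gene was 0.9997 (edgeR, DESeq2 and limma-voom).

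With the replicate block, Mcm6 had a log2 fold change of -0.0032 (SE 0.12), Mcm10 of -0.079 (SE 0.064) and Cdc45 of -0.042 (SE 0.075). The block left 0 genes called and 63 at an unadjusted p under 0.05, and only number 2 paired best with itself.

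Total counts moved the median of all genes to 0.033, from -0.0020, and gave log2 fold changes of 0.023 for Mcm2, 0.034 for Mcm3, 0.033 for Mcm6, 0.033 for Mcm7, 0.0072 for Cdt1, 0.027 for Gmnn, 0.021 for Orc1, 0.0032 for Orc6, 0.028 for Mcm8, 0.012 for Lig1, 0.025 for Tfdp1 and 0.018 for Top2a. RLE factors gave 0.0012 for Mcm3 and 0.00050 for Mcm7, and DESeq2 gave 0.0012 and 0.00050. Chosen after seeing the data, leaving out mitochondrial genes gave 0.00033 for Mcm3. Leaving out Ground-1 and Space-3, also chosen after seeing the data, gave 0.0040 for Mcm3, 0.0072 for Mcm7 and 0.023 for Orc1. Leaving out Ground-2 and Space-2 gave 0.021 for Mcm6, 0.016 for Cdt1, 0.0031 for Mcm8 and 0.015 for Top2a. Leaving out Ground-3 and Space-1 gave 0.0051 for Mcm7, 0.0079 for Gmnn, -0.0029 for Orc4, 0.043 for Orc6, 0.013 for Mcm8 and -0.033 for Bub1. In all of these the cause was not tested.

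Without 1 library, log2 fold changes of genes whose sign turned ranged from -0.045 to 0.025 for Mcm2, -0.052 to 0.046 for Mcm3, -0.015 to 0.051 for Mcm5, -0.096 to 0.076 for Mcm6, -0.077 to 0.078 for Mcm7, -0.15 to 0.059 for Cdc45, -0.015 to 0.084 for Cdc6, -0.064 to 0.022 for Cdt1 and -0.095 to 0.072 for Gmnn. For genes beyond licensing whose sign turned they ranged from -0.027 to 0.0074 for Orc1, -0.037 to 0.089 for Orc3, -0.00038 to 0.078 for Orc4, -0.13 to 0.041 for Orc6, -0.015 to 0.12 for Cdc7, -0.012 to 0.047 for Ddb1, -0.11 to 0.12 for Mcm8, -0.015 to 0.054 for Topbp1, -0.0025 to 0.14 for Prim2, -0.12 to 0.069 for Lig1, -0.15 to 0.026 for E2f8, -0.054 to 0.037 for Tfdp1, -0.028 to 0.034 for Bub1 and -0.18 to 0.12 for Top2a. The sign did not turn for others, which ranged from -0.66 to -0.22 for Mcmdc2, -0.14 to -0.0048 for Mki67, -0.13 to -0.0088 for Gins1, -0.13 to -0.019 for Orc5, -0.080 to -0.00018 for Orc2, -0.072 to -0.012 for Dbf4, -0.11 to -0.045 for Mcm10, 0.020 to 0.059 for Mcm4, -0.12 to -0.060 for Pole2, 0.24 to 0.37 for Rbl2 and 0.080 to 0.13 for Ticrr. Shares of the ring, Space minus Ground in percentage points, ranged from -0.32 to 0.058 for Mcm3, -0.14 to 0.87 for Mcm4, -0.39 to 0.55 for Mcm5, -0.66 to 0.36 for Mcm6 and -0.59 to 0.48 for Mcm7, and the log2 ratio of Cdt1 to Gmnn from -0.093 to 0.046. The median of the licensing genes ranged from -0.054 to 0.044.

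Levels in CPM per kilobase on the longest annotated transcript were 157 for Mcm2, 124 for Mcm3, 126 for Mcm5, 172 for Mcm7, 24.3 for Mcm10, 70.5 for Cdc45, 14.1 for Cdc6 and 63.3 for Cdt1. On the longest protein-coding transcript they were 163 for Mcm2, 141 for Mcm3, 126 for Mcm5, 172 for Mcm7, 24.3 for Mcm10, 70.5 for Cdc45, 14.7 for Cdc6 and 78.0 for Cdt1. With 3 libraries per group, the unadjusted 95% intervals give fold changes compatible with the fit, and do not set which changes the test could call. The fit did not model the likeness of libraries across groups, so its SE and intervals may be too wide. Only 0.609% of all genes had an unadjusted p under 0.05 by edgeR. The SE of Mcm6 was 0.104 in the main fit, 0.061 without Ground-1 and Space-3 and 0.153 without Ground-2 and Space-2.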
